A study of Mus musculus with 24 samples.

Results

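The CAST segment of mouse Chr 17 holds the 33 zinc finger genes studied here, whose symbols start with *Zfp*. They are among the 13998 genes with deposited hypothalamic tag counts in 24 F2 mice. They were taken by symbol and by the start of their transcripts, which had to lie between the outermost markers of the segment. *Zfp598*, a ubiquitin ligase of ribosome quality control with the same prefix, was left out. Zinc finger genes under other names, or without deposited counts, were not gathered, so the 33 genes are a set made by name and place. All 33 lie well inside the segment, at least 17.8 Mb from its proximal and 8.72 Mb from its distal end.

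The mice came from an intercross founded by 1 B6.CAST-17.1 subcongenic male and several C57BL/6J females, and all were young adult males. One group of 12 was *cast/cast* across the Chr 17 segment, that is, it carried CAST/EiJ alleles on both chromosomes there. The other group of 12 was *b6/b6* across the same stretch. Both groups were *b6/b6* in the rest of the genome, and both had eaten the selection diets for about 48 h when the hypothalamus was taken, after a 10 d choice test and a spell on chow. The mice were also chosen by how much they ate: the *cast/cast* mice were those with the highest intake of the carbohydrate/protein (C/P) diet (77.8 to 106.6 kcal over 10 d) and the *b6/b6* mice those with the lowest (27.4 to 41.0 kcal), so allele and intake cannot be told apart between the groups. Each mouse gave 1 SAGE-Seq library, in which short tags next to CATG sites near the 3' end of transcripts are sequenced and counted.

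Zinc finger proteins of this kind read DNA with a row of C2H2 fingers, each holding a zinc ion. In many of them a Krüppel-associated box (KRAB) at the other end recruits the co-repressor Trim28, which in turn brings the histone methyltransferase Setdb1 and heterochromatin proteins, and a well-known task of such proteins is to silence transposable elements. The genes stand in clusters that arose by repeated duplication and differ between strains and species, and *Zfp57*, which keeps the methylation of imprinted genes, is the member with the best known single role here.

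Along the chromosome (GRCm38) the members formed groups. There were 19 of them at chr17:21008941-23599487 and 14 at chr17:28177418-37010729, of which 12 were packed at chr17:32765497-33631714. On the plus strand lay 18 genes and on the minus strand 15.

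The tags shown here were read from GENCODE transcripts, and which tags the deposited counts rest on is not given in the sources used here. In its longest GENCODE transcript every member had at least 5 CATG sites, with a median of 15, and the 27-base tag starting at the last CATG lay in a 3' UTR exon for 31 members and in a coding exon for *Zfp414* and *Zfp948*. The tags below, read 5' to 3' with the CATG in capitals, are those of the members that lay apart between the genotypes, of those that were higher with CAST alleles, and of neighbours that are set beside them further on.
Zfp942: CATGtatgctggaaaatctctgaaaat
Zfp943: CATGgtggggaaaaagtttccactttg
Zfp945: CATGgagcagagactgaaggataggtc
Zfp955a: CATGgacattttaccagccctttaagt
Zfp955b: CATGaagatagcacttgggttgttaag
Zfp820: CATGtatgtaactccaataaagctcat
Zfp52: CATGcctttaatcacagcacacagaag
The tag of *Zfp955b* also occurs in a transcript of *Zfp955a*, and that of *Zfp414* in the overlapping gene *Gm20507*. A second transcript of *Zfp414* has a last tag of its own, in a 3' UTR exon, that occurs in no other gene. The same holds for shorter transcripts of the called members *Zfp811* and *Zfp945*. The tags of *Zfp955b* and *Zfp799* lie beyond the ends of these genes in the deposited coordinates. In the longest transcripts, the last tags of the 31 members other than *Zfp955b* and *Zfp414* were found exactly in no other gene. Those of *Zfp52* and *Zfp947* came within 1 or 2 mismatches of tags in 6 and 2 other genes. Where all CATG sites are taken, 29 of the 37 tags of *Zfp955a*, 29 of the 54 of *Zfp955b* and 10 of the 15 of *Zfp947* occur in another gene, so counts of these members may be shared. The last tags of *Zfp213* and *Zfp870* overlap exons of other genes on the opposite strand.

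Values are tag hits divided by the size factor of the library, called normalized counts. A log2 fold change is the mean of log2(normalized count + 1) in *cast/cast* mice less that in *b6/b6* mice. Summed over the 33 genes, *b6/b6* mice held 4258 ± 370 normalized counts (SD, n = 12; 3824 to 4982) and *cast/cast* mice 3236 ± 430 (n = 12; 2653 to 4025), so the groups overlapped at the ends of their ranges. Of the net difference of 1022 between the mean sums, *Zfp955a*, *Zfp945*, *Zfp811* and *Zfp942*, chosen here as the 4 members with the widest falls in mean count, made up 933. The median log2 fold change of the members was -0.46, against -0.02 over all 13998 genes and -0.06 over the other 377 genes of the segment. It was -0.22 over 32 members without the 4 libraries described further on. Of the 33 members, 22 lay below 0 and 11 above, and without those libraries 19 and 13.

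A gene was called when limma gave an unadjusted *P* of at most 0.01 and the ratio of mean normalized counts was at least 1.5. By this rule 10 of 33 members were called (30.3%), where 1.49% of all genes and 24.4% of the other genes of the segment were, so the share of members called was near that of their neighbours. There were 8 members lower in *cast/cast* mice (24.2%, against 1.01% of all genes and 18.3% of the other segment genes), namely *Zfp677*, *Zfp942*, *Zfp945*, *Zfp40*, *Zfp811*, *Zfp472*, *Zfp763* and *Zfp955a*. Higher were 2, *Zfp52* and *Zfp820* (6.06%, against 0.471% of all genes and 6.1% of the other segment genes). With a Benjamini-Hochberg adjusted *P* of at most 0.05 over all genes instead, 6 members passed in limma (18.2%, against 0.572% of all genes and 16.7% of the other segment genes), all of them lower. As this is bulk tissue, fewer cells that use a gene and less RNA per cell cannot be told apart. Each *P* rests on 1 library per mouse. Tags were aligned to a reference of C57BL/6J sequence, and whether CAST variants within a member's tags changed its count was not tested.

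**Figure D1:**
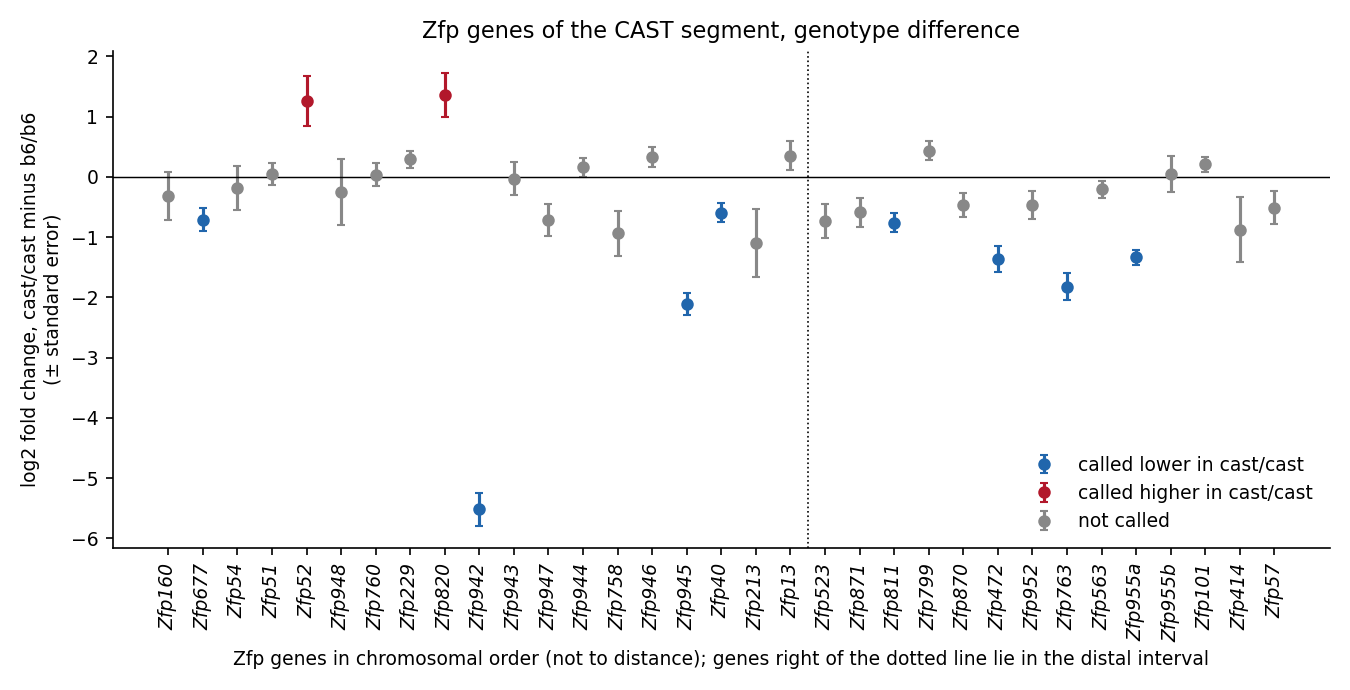
The plot of log2 fold changes shows the 33 *Zfp* genes in chromosomal order, with the log2 fold change (*cast/cast* minus *b6/b6*, n = 12 each) on the y axis and bars for its standard error. *Zfp942*, at -5.52, stands far below the rest; the 8 called lower and the 2 called higher lie among uncalled neighbours.

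*Zfp942* showed the widest difference of the 33 members. The gene lies at chr17:21926963-21962464 on the minus strand. Among the *b6/b6* mice its normalized count had a lowest value of 95.2, a median of 115.0 and a highest value of 156.3. Among the *cast/cast* mice these were 0, 1.70 and 6.23. No *cast/cast* mouse came near any *b6/b6* mouse, and the *cast/cast* counts rested on 0 to 7 tag hits, with more than 3 hits in 2 mice. The means were 120.9 ± 17.6 and 2.13 ± 1.88 (SD, n = 12 each), a ratio of 56.9-fold and a log2 fold change of -5.52 (SE 0.27; limma adjusted *P* = 1.28e-14). Because most *cast/cast* mice were within 3 hits, the size of this fold change depends on the constant added before the log2, and it ran from -5.91 to -4.17 over the alternatives tried.

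*Zfp945*, at chr17:22846697-22867134 on the minus strand, also fell with no overlap. The *b6/b6* mice ranged from 228.9 to 487.6 with a median of 397.9. The *cast/cast* mice ranged from 49.6 to 133.3 with a median of 87.7. Every *cast/cast* mouse was therefore below every *b6/b6* mouse. The log2 fold change was -2.11 (SE 0.18; limma adjusted *P* = 2.92e-09), and the ratio of means 4.22-fold.

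*Zfp955a*, at chr17:33239507-33255145 on the minus strand, was the third member whose genotypes lay fully apart. Its *b6/b6* counts had a lowest value of 465.0, a median of 636.2 and a highest value of 774.7. The *cast/cast* counts were 183.0, 242.1 and 395.3. The highest *cast/cast* mouse stayed below the lowest *b6/b6* mouse, and the log2 fold change was -1.34 (SE 0.13; limma adjusted *P* = 1.94e-08). Non-overlap was thus seen for 3 members (9.09%, against 0.336% of all genes and 10.3% of the other segment genes).

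*Zfp763* and *Zfp472*, both in the distal group, fell with little overlap. *Zfp763*, at chr17:33016864-33033381, ranged from 41.5 through a median of 86.4 to 108.8 in *b6/b6* mice and from 11.4 through 21.5 to 53.4 in *cast/cast* mice. A single *b6/b6* mouse lay within the *cast/cast* range, since 11 of 12 were above it, and the log2 fold change was -1.82 (SE 0.23; limma adjusted *P* = 3.81e-06). *Zfp472*, at chr17:32965831-32979211, ranged from 43.7 through 66.4 to 91.3 in *b6/b6* mice and from 9.45 through 26.6 to 49.5 in *cast/cast* mice. Here 11 of 12 *cast/cast* mice were below all *b6/b6* mice, and the log2 fold change was -1.36 (SE 0.21; limma adjusted *P* = 0.000153).

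The remaining called declines were smaller. *Zfp811*, at chr17:32795676-32809931, ran from 240.2 through 336.5 to 510.7 in *b6/b6* and from 127.7 through 209.2 to 300.1 in *cast/cast* mice, with 9 *cast/cast* mice below the whole *b6/b6* range and a log2 fold change of -0.76 (SE 0.16; limma adjusted *P* = 0.00939). *Zfp40* and *Zfp677* did not reach an adjusted *P* of 0.05 and were called by the unadjusted rule. For *Zfp40*, at chr17:23173869-23193228, the values ran from 159.9 through 271.5 to 410.0 in *b6/b6* and from 119.1 through 176.1 to 246.0 in *cast/cast* mice. The genotypes overlapped widely, the ratio of means was 1.53-fold, just past the minimum of 1.5, and the log2 fold change was -0.59 (SE 0.15; limma *P* = 0.000517, adjusted *P* = 0.0837). For *Zfp677*, at chr17:21383748-21399265, the values ran from 38.1 through 55.6 to 77.1 in *b6/b6* and from 16.6 through 35.9 to 49.0 in *cast/cast* mice. Below all *b6/b6* mice lay 7 *cast/cast* mice, and the log2 fold change was -0.71 (SE 0.19; limma *P* = 0.000798, adjusted *P* = 0.119).

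Both members that rose with CAST alleles were variable, and neither passed the adjusted threshold. Their mean normalized counts in *b6/b6* mice were 27.3 (*Zfp52*) and 5.50 (*Zfp820*). *Zfp52*, at chr17:21535539-21562601, ran from 8.70 through a median of 20.1 to 64.3 in *b6/b6* and from 10.7 through 84.2 to 138.0 in *cast/cast* mice. The *cast/cast* mice were spread over the whole *b6/b6* range, with 7 above it, and the log2 fold change was 1.26 (SE 0.42; limma *P* = 0.00589, adjusted *P* = 0.415). The call of *Zfp52* was lost with libraries rescaled to equal totals, at a log2 fold change of 1.17 (limma *P* = 0.0139). *Zfp820*, at chr17:21816876-21845759, ran from 1.04 through 4.22 to 15.7 in *b6/b6* and from 5.13 through 11.8 to 47.5 in *cast/cast* mice. Although the ranges overlapped, 7 *b6/b6* mice lay below all *cast/cast* mice, and the log2 fold change was 1.35 (SE 0.36; limma *P* = 0.000874, adjusted *P* = 0.126). The *b6/b6* counts of *Zfp820* rested on 1 to 20 tag hits, with more than 3 hits in 7 mice. Its log2 fold change was 1.47 with 0.5 and 0.90 with 5 added before the log2.

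**Figure D2:**
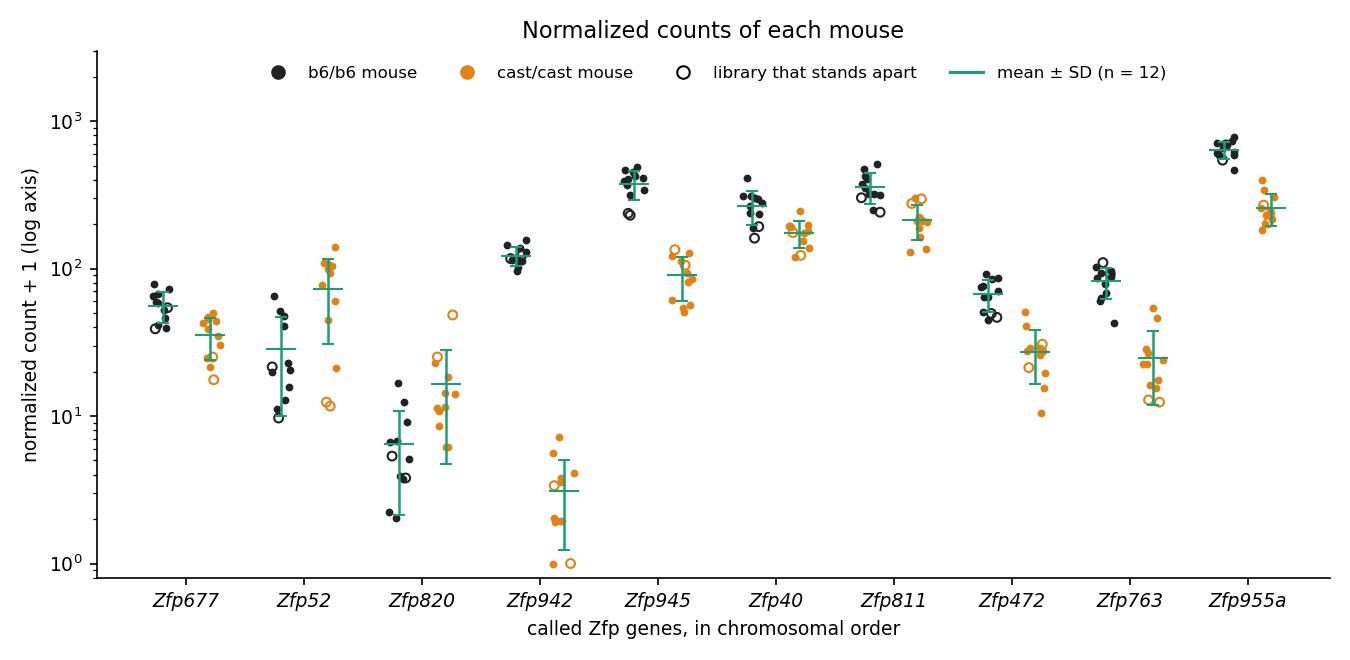
The plot of called genes gives the normalized count plus 1 of each mouse on a log axis for the 10 called *Zfp* genes, with mean ± SD (n = 12) in green and open circles for 4 libraries that stand apart. *Zfp942*, *Zfp945* and *Zfp955a* show no overlap between *b6/b6* (black) and *cast/cast* (orange) mice, and *Zfp52* and *Zfp820* overlap widely.

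The 23 uncalled members had ratios of means from 0.195 to 1.40, and 8 of them had an unadjusted *P* under 0.05. With the called ones that made 18 members (54.5%), where 8.13% of all genes and 35.8% of the other segment genes had such a *P*. *Zfp799* passed the *P* threshold in limma (*P* = 0.00926, adjusted *P* = 0.482) with a log2 fold change of 0.44 (SE 0.16), but its ratio of means, 599.5 to 442.5, was 1.35. Its log2 fold change was 0.28 (limma *P* = 0.0871) without the 4 libraries described further on. *Zfp947* was close to the *P* threshold at a log2 fold change of -0.71 (95% interval -1.25 to -0.18; limma *P* = 0.0112), and many of its possible tags are shared with other genes. It was called by edgeR (*P* = 0.00915), by DESeq2 (*P* = 0.00509), with rescaled totals (limma *P* = 0.00367) and with a pseudocount of 5 (limma *P* = 0.00885). *Zfp870* ran from 48.9 through 128.3 to 156.9 in *b6/b6* and from 49.8 through 72.2 to 143.6 in *cast/cast* mice. The ranges of *Zfp870* nearly coincided while its medians lay apart, and its log2 fold change of -0.46 (SE 0.20; limma *P* = 0.0266, adjusted *P* = 0.586) missed the call.

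Among the other uncalled members, those with a limma *P* under 0.05 were *Zfp523*, the mouse counterpart of *ZNF76* and a relative of the snRNA gene activator *Znf143*, with a log2 fold change of -0.73 (95% interval -1.32 to -0.15), *Zfp758* (-0.94, -1.71 to -0.17), *Zfp871* (-0.59, -1.08 to -0.09), *Zfp952* (-0.47, -0.94 to -0.0018) and *Zfp229* (0.29, 0.01 to 0.56). Without the 4 libraries described further on, the limma *P* was 0.0744 for *Zfp758*, 0.0745 for *Zfp871*, 0.142 for *Zfp229* and 0.027 for *Zfp952*. *Zfp57* averaged 9.20 ± 2.79 (*b6/b6*) against 6.70 ± 3.71 (*cast/cast*) normalized counts (SD, n = 12 each), a log2 fold change of -0.51 whose 95% interval ran from -1.06 to 0.04. For 5 members the interval stayed within 0.5 on either side of 0, namely *Zfp51* (-0.32 to 0.41), *Zfp760* (-0.36 to 0.44), *Zfp944* (-0.16 to 0.47), *Zfp563* (-0.49 to 0.08) and *Zfp101* (-0.046 to 0.46). *Zfp946* (-0.007 to 0.66), *Zfp13* (-0.13 to 0.84), *Zfp943* (-0.60 to 0.53) and *Zfp955b* (-0.57 to 0.66) had wider intervals. The low genes *Zfp160* (-1.14 to 0.49), *Zfp54* (-0.94 to 0.56) and *Zfp948* (-1.38 to 0.87) had intervals wider still.

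Next to the called members lay uncalled ones, also where the genes share a short stretch of DNA. *Zfp942* and *Zfp943* start back to back on opposite strands with 94 bp between them. The gene models leave this stretch at chr17:21962465-21962558 (RefSeq, GRCm38.p6), shown here on the plus strand with its 9 CG dinucleotides in capitals because both genes start at its ends.
Zfp942-Zfp943 gap: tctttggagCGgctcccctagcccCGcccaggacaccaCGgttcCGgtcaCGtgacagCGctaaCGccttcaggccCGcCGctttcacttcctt
To the left of the stretch, *Zfp942* fell by 5.52 on the log2 scale. To the right, *Zfp943* averaged 63.2 ± 21.7 (*b6/b6*) against 66.3 ± 29.4 (*cast/cast*) normalized counts, a log2 fold change of -0.03 (limma *P* = 0.9, 95% interval -0.60 to 0.53). The letters TATAAA on either strand were present in 11.1% of 36 RefSeq promoter windows of 30 members and in 13.6% of all 32851 windows of the same length, and CGCG in 41.7% and 38.0%.

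*Zfp944* and *Zfp758* form a second back-to-back pair, with 52 bp between them. *Zfp944* averaged 201.7 ± 56.6 (*b6/b6*) against 226.0 ± 62.5 (*cast/cast*) normalized counts. *Zfp758* had 8.53 ± 6.53 and 4.04 ± 2.93, with 0 to 10 tag hits in *cast/cast* mice, and was not called. *Zfp955a* and *Zfp955b*, which carry many tags in common, point away from each other across 34398 bp. While *Zfp955a* fell, *Zfp955b* averaged 88.9 ± 37.9 (*b6/b6*) against 95.9 ± 45.3 (*cast/cast*) normalized counts. The difference between the members of a pair was not tested.

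**Figure D3:**
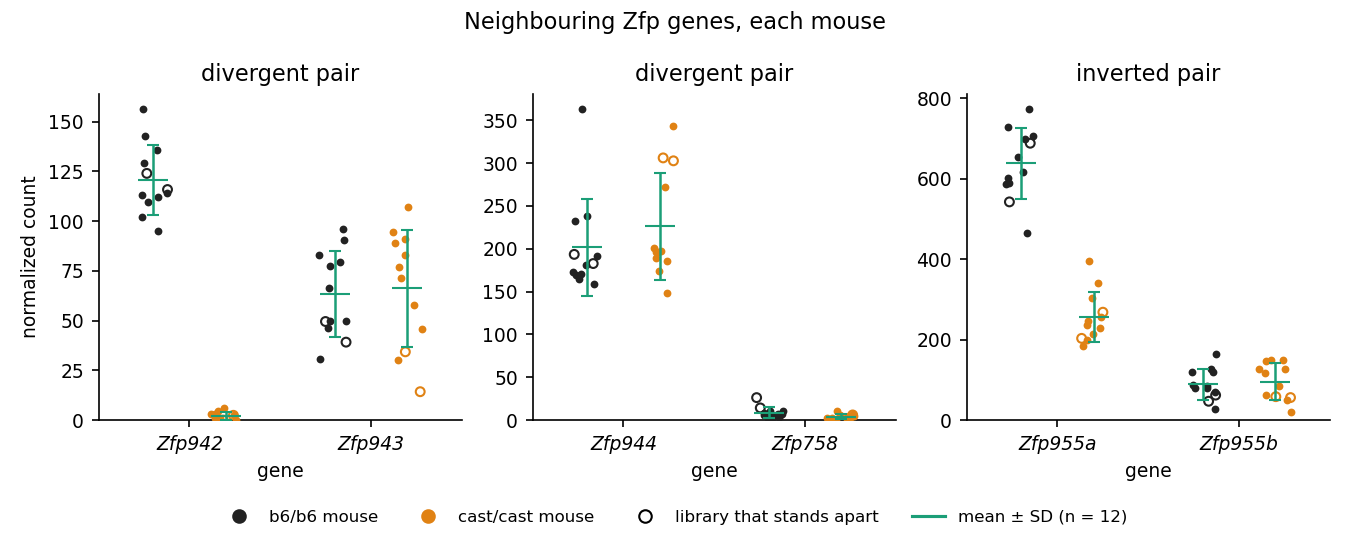
The plot of neighbouring genes gives the normalized count of each mouse on a linear axis from 0 for 3 pairs, with mean ± SD (n = 12) in green. *b6/b6* and *cast/cast* mice lie apart for *Zfp942* and *Zfp955a* and overlap for *Zfp943*, *Zfp955b*, *Zfp944* and *Zfp758*.

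Members were called in both chromosomal groups. In the proximal group 6 of 19 were called, 4 lower and 2 higher, with a median log2 fold change of -0.19. In the distal group 4 of 14 were called, all lower, with a median of -0.55. Of all genes 1.49% were called, and of the other segment genes 24.4%. *Zfp942* and *Zfp945* lay in the proximal group and *Zfp955a* in the distal one, so non-overlapping members were found in both. The genotypes did not overlap for 0.336% of all genes and 10.3% of the other segment genes.

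The libraries held 7754202 to 13082873 tag hits, with a median of 10032338 for *b6/b6* and 10383038 for *cast/cast* libraries, of which 3704 to 5610 and 2639 to 4224 per mouse came from the members. Of 15 hypothalamus markers 12 were measured (*Sst*, *Otp* and *Rax* were not analysed here), and their sum was 5791 to 33271 normalized counts per mouse. Across genes outside Chr 17, 4 libraries, 2 of each genotype, stood apart from the rest by their median correlation with the others (lowest r = 0.863, median of all libraries 0.95). In both such *b6/b6* libraries all 3 endothelial markers summed to 409 to 479 normalized counts, against 67.5 to 181 in the other *b6/b6* mice, and 2 of 3 red blood cell markers to 818 to 2686 against 71.6 to 627. The choroid plexus markers (220.5 to 226.2 against 116.5 to 207.5) and the astrocyte markers (19934 to 20166 against 13955 to 19256) were also high in both. The microglia markers were low in both (1315 to 1413 against 1946 to 3649). The hypothalamus markers summed to 16766 to 29602 against 11237 to 20216, so the lower of these 2 libraries lay within the range of the other *b6/b6* mice. In both such *cast/cast* libraries the hypothalamus markers summed to 5791 to 8546, against 8775 to 33271 in the other *cast/cast* mice.

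These libraries held the highest values of several uncalled members. *Zfp213* had 82.7 and 51.4 normalized counts in the 2 *b6/b6* libraries and a mean of 4.66 in the other 10 *b6/b6* mice, against 2.94 ± 2.01 in *cast/cast* mice, and edgeR and DESeq2 called it where limma did not (*P* = 0.0603). *Zfp414* had 132.7 and 114.0 in the same libraries and 8.06 ± 3.47 in the other *b6/b6* mice, against 8.98 ± 6.19 in the 10 other *cast/cast* mice. *Zfp523*, *Zfp758*, *Zfp871* and *Zfp952* were also at their *b6/b6* maximum there, with *Zfp952* at 595.2 and 587.3 against 249.5 ± 80.2 in the other *b6/b6* mice. *Zfp523* had 57.9 and 62.0 there, and its limma *P* was 0.0537 without the 4 libraries. For all 6 of these members the 2 highest *b6/b6* values came from the same pair of mice, and the part of other cell types' RNA in them was not tested.

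Without the 4 libraries 12 members were called, 10 lower and 2 higher, where 1.37% of all genes were. *Zfp870* was then called (log2 fold change -0.75; limma *P* = 0.000101), where 10 *b6/b6* mice averaged 129.5 ± 19.4 and 10 *cast/cast* mice 78.8 ± 25.1 normalized counts, and so was *Zfp947* (-0.91, *P* = 0.00275). The pair of *b6/b6* libraries held the lowest *b6/b6* counts of *Zfp870* (72.9 and 48.9) and 1 of the *cast/cast* libraries its highest (143.6). *Zfp52*, whose lowest *cast/cast* counts came from both *cast/cast* libraries, moved to a log2 fold change of 1.56. *Zfp820*, whose highest *cast/cast* counts (47.5 and 24.1) came from them, moved to 1.03. The 10 called members stayed called, and *Zfp942*, *Zfp945* and *Zfp955a* again showed no overlap.

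Study numbers, an identifier of each mouse in the labels, were lower in *cast/cast* (median 120.5) than in *b6/b6* mice (median 269.5). All 4 libraries that stood apart had numbers up to 121. The genotype difference was therefore recomputed in the 12 mice with numbers up to 121 (7 *cast/cast* and 5 *b6/b6*) and in the 12 with numbers from 197 (5 and 7). All 10 called members kept their sign in both subsets, and 7 and 9 members were called there, against 3.27% and 1.1% of all genes. *Zfp677* was called in neither subset (log2 fold changes -0.80 in the lower and -0.54 in the higher numbers), *Zfp40*, *Zfp52* and *Zfp811* lost their call in the lower numbers and *Zfp820* in the higher, while *Zfp799* gained one in the lower and *Zfp758* in the higher. In a limma interaction fit no member reached *P* of 0.01 and 2 lay under 0.05, against 2.81% and 13.5% of all genes. *Zfp811* had a log2 fold change of -0.37 (*P* = 0.0905) in the lower and -1.11 (*P* = 0.00012) in the higher numbers, an interaction of -0.74 (limma *P* = 0.0166). Over all mice but the 4 libraries that stood apart, the log2 fold change of *Zfp811* was -0.93 (limma *P* = 3.69e-06). Its interaction without these libraries was not tested. *Zfp414* had the other interaction under 0.05, at 2.12 (limma *P* = 0.0379), and its log2 fold change was 0.01 in the mice with higher numbers.

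**Figure D4:**
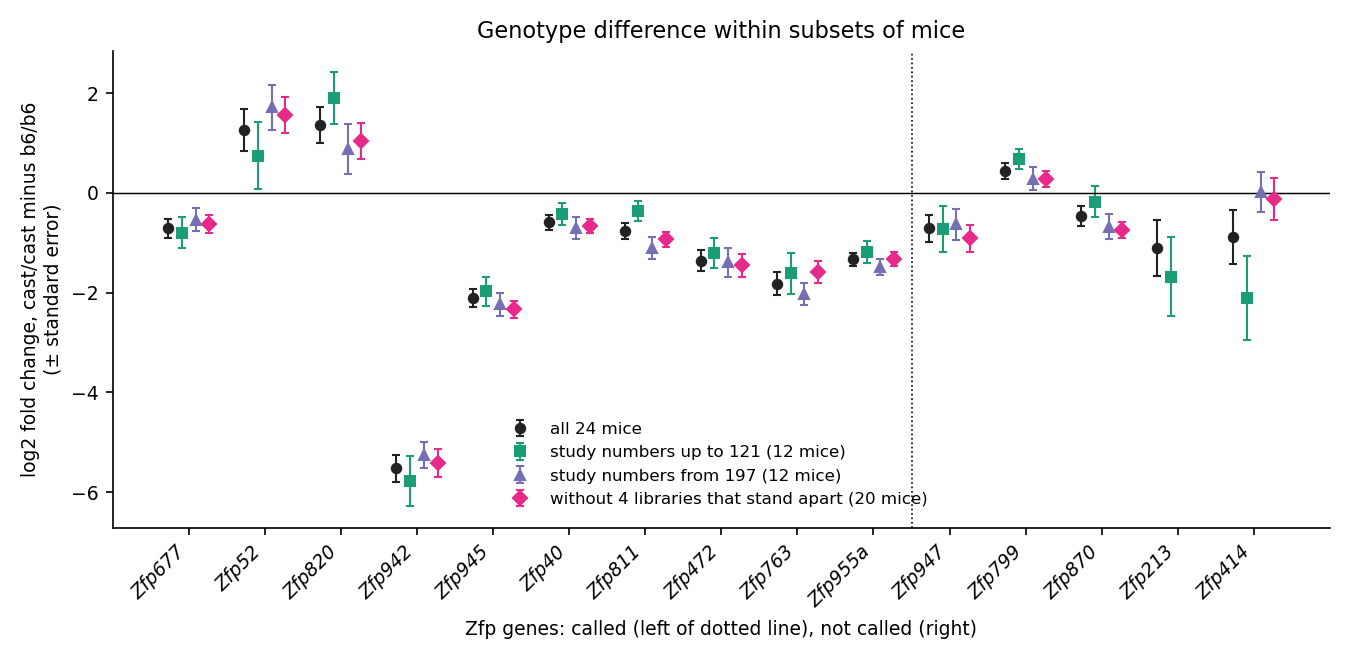
The plot of subsets gives the log2 fold change (*cast/cast* minus *b6/b6*) with its standard error for the 10 called and 5 uncalled *Zfp* genes in all 24 mice, in the 12 mice with each range of study numbers, and in 20 mice without the 4 libraries that stand apart. The called genes keep their side of 0 in every set, *Zfp414* is at -2.11 in the lower study numbers and near 0 in the other subsets, and *Zfp213* has no value in the 2 sets where its mean was under 5.

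Both genotypes carry the same alleles outside the segment. Of 285 *Zfp* genes outside the segment 1 was called (0.351%, against 0.676% of all 12867 genes outside), and their median log2 fold change was -0.01. This count moved with the processing, to 4 with rescaled totals and with edgeR, 5 with study number as covariate, 7 with DESeq2 and 10 in mice with numbers up to 121, where 3.27% of all genes were called. The shares of all genes called with rescaled totals, edgeR, the covariate and DESeq2 are not given here. The called gene was *Zfp69* on Chr 4, which averaged 6.35 ± 3.77 (*b6/b6*) against 15.4 ± 10.6 (*cast/cast*) normalized counts, a log2 fold change of 1.24 (SE 0.36; limma adjusted *P* = 0.214). The next lowest *P* values were those of *Zfp597* (-0.46; limma *P* = 0.0042) and *Zfp951* (-0.81; limma *P* = 0.012), both uncalled.

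Of 33 genes that work with KRAB zinc finger proteins in silencing, 29 were tested (*Atf7ip2*, *Fam208a*, *Dnmt3b* and *Uhrf1* were not analysed here). Of these, 1 was called (3.45%, against 1.49% of all genes). This was *Sumo3*, which encodes a small protein that is attached to Trim28 among many others. It averaged 405.5 ± 182 (*b6/b6*) against 263.0 ± 59.1 (*cast/cast*) normalized counts, a log2 fold change of -0.55 (SE 0.19; limma *P* = 0.0066, adjusted *P* = 0.436), and was not called without the 4 libraries (*P* = 0.0612). *Sumo2* (0.33; limma *P* = 0.0111) came next and was not called. *Trim28* had 242.0 ± 329 and 98.9 ± 39.5 normalized counts, with an unadjusted limma *P* of 0.0713 in all mice and 0.796 without the 4 libraries. edgeR called it (log2 fold change -1.27; edgeR *P* = 0.00621). *Setdb1* had a log2 fold change of 0.07. The median log2 fold change of the 29 genes was -0.01.

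Within genotypes, no correlation of a member with intake passed the corrected threshold. Of 66 correlations of log2 counts with C/P kcal, for 33 members in each genotype, 0 had a Benjamini-Hochberg adjusted *P* of at most 0.05, with an unadjusted permutation *P* under 0.05 for 1 by Pearson's r and for 3 by Spearman's rho. The first was *Zfp40* in *b6/b6* mice, with Pearson's r = 0.79 (permutation *P* = 0.00242, adjusted *P* = 0.16) and Spearman's rho = 0.69 (permutation *P* = 0.0165, adjusted *P* = 0.667), and r = 0.65 without the 2 mice farthest from the median intake. The others by rho were *Zfp870* (rho = 0.65, permutation *P* = 0.026, adjusted *P* = 0.667; r = 0.39, permutation *P* = 0.215, adjusted *P* = 0.643) and *Zfp57* (rho = -0.59, permutation *P* = 0.0454, adjusted *P* = 0.667; r = -0.51, permutation *P* = 0.0963, adjusted *P* = 0.635), both in *cast/cast* mice.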

How the data were processed

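Tag hits of 24 hypothalamus SAGE-Seq libraries (1 per mouse) were obtained by the authors by mapping tags, with SOLiD SAGE software they had modified, against the RefSeq transcriptome and GRCm38. The signal deposited by the authors is a normalized count, in which the hits of a gene are scaled with a size factor from DESeq. In every library 100% of the values gave whole hits, within 0.01, when divided by 1 common unit. Columns with the authors' own comparisons (fold change, log2, *P* and adjusted *P* of DESeq) were not used. The reference carries C57BL/6J sequence, and the effect of CAST variants within a tag on its count was not tested. Depth limits low genes: the floor of 3 hits covers counting error only, since tags carry no molecular identifiers.

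All 13998 genes, with a minimum mean of 5, were tested with limma 3.58.1 (lmFit, eBayes with trend) on log2(normalized count + 1) without covariates, and *P* was adjusted by Benjamini-Hochberg over all genes. Intervals of a log2 fold change are 95% intervals from the same fit. They give the uncertainty of the difference between group means, estimated from the variation between mice, and not the range of single mice. Correlations used permutation tests with 100000 resamples, two-sided. Libraries stood apart when their median correlation was more than 3 scaled median absolute deviations below the median. The scaling makes this deviation match an SD for normally distributed values. Every member is named, called ones and *Zfp870* with full values; of other *Zfp* genes and co-repressors, the called ones and the 3 with the lowest *P*, of which 1 co-repressor is not reported here. The members and lists were chosen with earlier results of these data known. Tags came from GENCODE transcripts and promoter windows from RefSeq, both on GRCm38. The segment's ends are those of the study's markers. The study states GRCm38 for these positions in its table of mapped loci but names an older build for its marker list, and the marker positions were not checked further. Alternatives were pseudocounts of 0.5 and 5, other minimum means, rescaled totals, edgeR 4.0.16 (quasi-likelihood test) and DESeq2 1.42.0 on whole hits, study number as covariate, subsets of mice, and other call rules. Of the fits only the main limma fit was tested on simulated data. The work used R 4.3.3 and Python 3.11.15.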

Additional observations from a re-analysis of the deposited data

How the results depend on the processing

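*Zfp942*, *Zfp945*, *Zfp472*, *Zfp763* and *Zfp955a* were called under all 14 alternatives and *Zfp811* under 13 of them. The alternative without a minimum mean could not differ from the main fit, as the lowest mean of any gene was 6.03. Dropping the minimum fold change could not take a call away. The number of members called was 7 to 12 except with the adjusted *P*, which left 6. Of all genes, 1.49% were called in the main fit and 1.37% without the libraries that stand apart. The share was 3.27% in the lower and 1.1% in the higher study numbers, and 0.572% had an adjusted *P* of at most 0.05. Shares of all genes under the remaining alternatives are not given here, so counts under those have no background beside them. Calls among *Zfp* genes outside the segment numbered 0 at a minimum mean of 20 and with the adjusted *P*, 4 with rescaled totals and with edgeR, 7 with DESeq2, 5 with study number as covariate, 10 in mice with numbers up to 121, and 2 without a minimum fold change. Co-repressors called were 2 with edgeR, *Trim28* among them, and 0 in either range of study numbers, without the libraries that stand apart, with the adjusted *P* and with the fold change from the log2 scale. Rescaling totals moved the median of all genes from -0.02 to -0.11, and *Zfp52* was then not called. Only uncalled members changed sign: with rescaled totals *Zfp51* (-0.045), *Zfp760* (-0.053) and *Zfp955b* (-0.041); with edgeR *Zfp943* (0.063); with DESeq2 *Zfp943* (0.069) and *Zfp414* (0.065); with study number as covariate *Zfp54* (0.039) and *Zfp955b* (-0.024); with numbers up to 121 *Zfp54* (0.18), *Zfp51* (-0.029) and *Zfp955b* (-0.055); with numbers from 197 *Zfp160* (0.28), *Zfp948* (0.46) and *Zfp414* (0.013); and without the libraries that stand apart *Zfp160* (0.11), *Zfp948* (0.26), *Zfp760* (-0.12) and *Zfp943* (0.15). The cause of these changes was not tested. A minimum mean of 20 gave no value for the 9 members below it. No paired analysis was possible because replicate numbers only follow the order of the samples.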

Other observations

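Another 8 *Zfp* genes were tested whose position was not used here, *Zfp141*, *Zfp161*, *Zfp187*, *Zfp192*, *Zfp238*, *Zfp295*, *Zfp498* and *Zfp626*, which entered no comparison by place. None was called, the count with an unadjusted limma *P* under 0.05 being 0, and their median log2 fold change was -0.14.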
